A study of Mus musculus with 23 samples.

Results

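The 9 genes described here encode transcription factors and cofactors of early heart muscle and of the heart fields: the MEF2 genes Mef2a, Mef2c and Mef2d, the serum response factor gene Srf with its coactivator gene Myocd and the SRF-binding Hopx, the basic helix-loop-helix genes Hand1 and Hand2, and the LIM homeobox gene Isl1. They were taken by symbol from a count table of 23453 mouse genes, and all 9 passed the filter on low counts. RNA came from mouse hearts at embryonic day 13.5, in 23 libraries of 3 genotypes, all with the strain label C57BL/6. The 7 triple-knockout libraries come from hearts that carried Nkx2.5Cre, 2 floxed alleles each of Grk2 and Grk5, and 2 knockout alleles of Grk6. The 8 haploinsufficient libraries share the Grk5 alleles, the Grk6 alleles and the driver, and have 1 floxed and 1 wild-type Grk2 allele. The 8 wild-type libraries have no Cre and unmodified alleles of the 3 kinase genes, so the presence of Cre and the loss of the kinases cannot be told apart in either comparison with wild type. Nkx2.5Cre acts in cells of the Nkx2-5 lineage, and other cells of a floxed heart keep their alleles. The G-protein coupled receptor kinases encoded by Grk2, Grk5 and Grk6 phosphorylate activated receptors and end their signalling.

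MEF2 proteins bind A/T-rich sites in muscle genes, where class IIa histone deacetylases hold them inactive until kinase signals remove the deacetylase. SRF binds CArG boxes, and its partner decides the target: myocardin drives contractile genes, whereas ternary complex factors of the ELK group drive growth-factor-induced genes, and HOPX, which has no DNA-binding activity of its own, lowers SRF activity. HAND1 marks mainly the left ventricle and outflow tract and HAND2 mainly the right ventricle, while ISL1 marks second heart field progenitors, and later the sinus node and cardiac neurons.

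Library totals were 6657734 to 13864731 counts in the triple knockout, 1757257 to 11025358 in the haploinsufficient group and 3838166 to 14050559 in wild type. Grk2, listed as Adrbk1, averaged 34.4 ± 6.60 CPM (counts relative to the scaled library total, SD, n = 7) in the triple knockout, 42.5 ± 12.04 in the haploinsufficient group and 54.3 ± 4.25 in wild type (SD, n = 8 each). Cre averaged 18.5, 17.7 and 0.332 CPM in the same 3 groups. Nkx2-5, the cardiac homeobox gene that names the driver, averaged 49.7, 70.2 and 98.3 CPM. The lower mean Nkx2-5 level of both GRK groups cannot be told apart from Cre and the loss of the kinases either. All 8 cardiomyocyte markers were detected in each group. Their median summed level was 30217 CPM in the triple knockout, 33168 in the haploinsufficient group and 30020 in wild type. Single libraries ran from 22017 to 44551 CPM in the triple knockout, 23090 to 42100 in the haploinsufficient group and 25354 to 37434 in wild type. Transcripts of lung, foregut, liver or thymus (13 genes), none of which was at 0 throughout a group, summed to between 11.9 and 146.5 CPM in the triple knockout, between 12.9 and 243.5 in the haploinsufficient group and between 7.37 and 47.2 in wild type. A score of these markers (mean log2 difference from the wild-type mean) lay above 1.5 in triple-knockout replicates 1, 2, 3 and 7, haploinsufficient replicates 1, 7 and 8, and wild-type replicate 4. Results that move with these libraries are given with and without them. Without them the triple knockout keeps the libraries with IDs 27, 28 and 29. The libraries are of whole organs, in which fewer cells of a type and less RNA per cell cannot be told apart. The labels do not tell whether replicates were different embryos, and p-values therefore refer to the spread among these libraries, some of which may be technical.

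Of the 9 genes, Myocd alone was called in any of the 3 comparisons, and it fell in haploinsufficient hearts. A gene counts as called where its edgeR p, adjusted over all 13941 genes tested, is under 0.05. Against wild type, 0 of 9 genes were called in the triple knockout, where 1.18% of all genes tested were called (0.488% higher and 0.696% lower), and 3 of 9 (Myocd, Hopx and Isl1) had an unadjusted p under 0.05, against 10.8% of all genes. DESeq2 and limma on log2 FPKM also called 0 of 9 there. Of the 9 genes 1 was called in the haploinsufficient group, against 2.24% of all genes tested (0.861% higher and 1.38% lower), and 3 of 9 (Myocd, Hopx and Mef2d) had an unadjusted p under 0.05, against 17.2% of all genes. Both comparisons use the same wild-type libraries. In the triple knockout against the haploinsufficient group 0 of 9 were called by edgeR, DESeq2 or limma, against 0.395% of all genes by edgeR (0.0789% higher and 0.316% lower), and 0 of 9 had an unadjusted p under 0.05, against 15.3% of all genes. No gene of the 9 had ranges that stood apart between any pair of groups, which held for 0.94%, 0.452% and 0.0933% of all genes tested in the 3 comparisons as listed. The median log2 fold change of the 9 genes was -0.01 in the triple knockout and -0.05 in the haploinsufficient group, against 0.01 over all genes in each comparison.

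**Figure D1:**
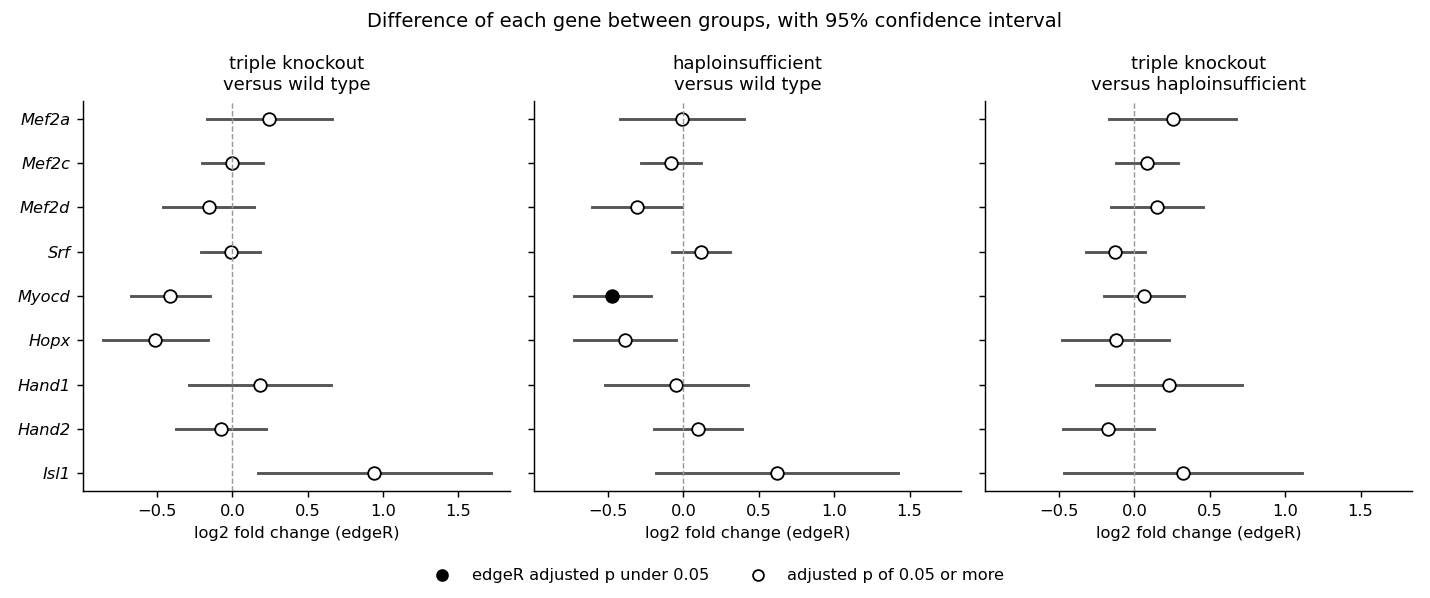
Log2 fold change (edgeR, x axis) of each of the 9 genes with its 95% confidence interval, for the triple knockout against wild type, the haploinsufficient group against wild type and the triple knockout against the haploinsufficient group. The filled point, Myocd in the haploinsufficient group at -0.47, is the only one with an adjusted p under 0.05, and the interval of Isl1 is the widest.

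Levels can be compared between genes per transcript length, in the deposited FPKM values (fragments scaled to transcript length and library size). In wild-type hearts Hopx was the most abundant of the 9, at 129.3 ± 15.5 FPKM (SD, n = 8) and between 106.3 and 155.8. Below it came Srf (49.6 ± 5.06), Hand2 (42.2 ± 4.57), Myocd (31.7 ± 4.08), Mef2a (26.9 ± 8.87) and Mef2d (22.5 ± 3.57), each with a range that overlapped its neighbour's. Mef2c (12.5 ± 0.856), Hand1 (5.51 ± 2.07) and Isl1 (1.31 ± 0.744) closed the order, each with a range below that of the gene above it. In the triple knockout Hopx averaged 93.3 ± 23.6 FPKM (SD, n = 7) and Isl1 2.55 ± 1.58, against 98.5 ± 26.1 and 1.87 ± 1.57 in the haploinsufficient group (SD, n = 8). Isl1 thus stood lowest and Hopx highest in all 3 groups, with no overlap between their libraries.

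**Figure D2:**
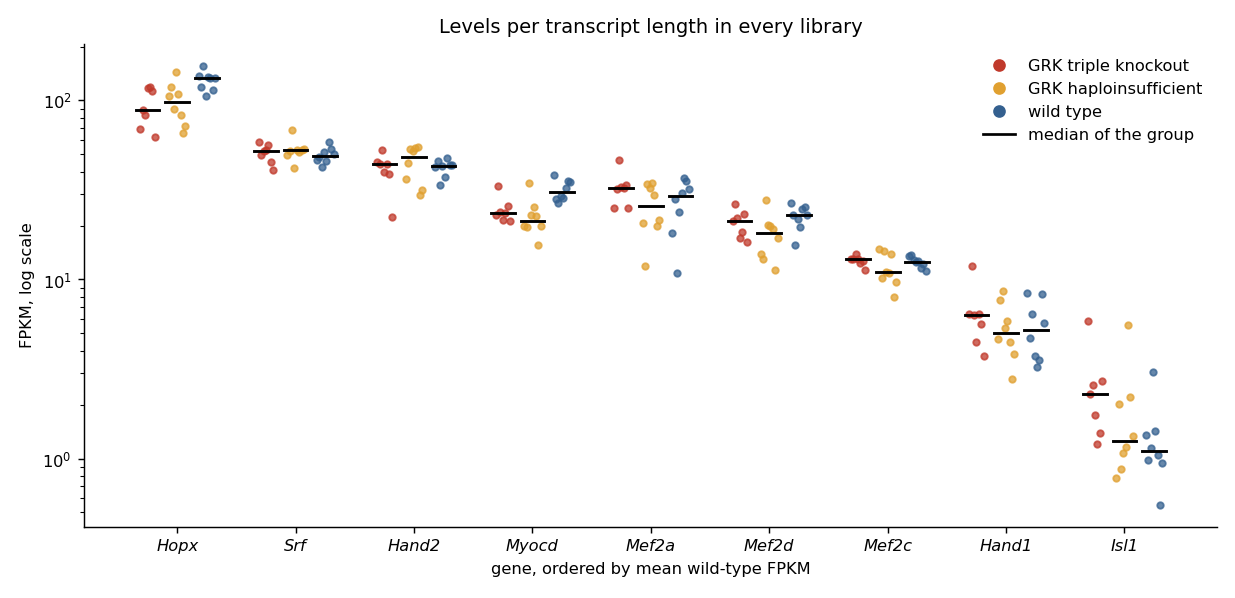
FPKM on a log axis of the 9 genes in every library, ordered by the wild-type mean, with the triple knockout left of the haploinsufficient group and wild type on the right of each triplet and the group median as a bar. Hopx libraries run from 62.2 to 155.8 FPKM and Isl1 libraries from 0.551 to 5.89 FPKM.

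The MEF2 genes did not differ between genotypes at the threshold. Mef2a (mm10, chromosome 7, 67233827 to 67372858, minus strand) had the widest spread of the 3 genes. Its lowest, median and highest levels were 65.9, 97.3 and 125.2 CPM in the triple knockout, 35.6, 75.4 and 102.3 CPM in the haploinsufficient group and 32.4, 85.3 and 108.6 CPM in wild type. The groups overlapped almost fully, and the lowest wild-type and haploinsufficient libraries lay well below every triple-knockout library. The log2 fold change was 0.24 ± 0.20 (SE) in the triple knockout and -0.01 ± 0.20 in the haploinsufficient group (edgeR adjusted p = 0.744 and 0.987). Library IDs fall into 1 to 12 and 19 to 30, each holding all 3 genotypes, and Mef2a was at 0.70 in the triple knockout within the lower IDs and at -0.13 within the higher (edgeR adjusted p = 0.372 and 0.927). The difference between the ID sets did not pass the test either (-0.81 ± 0.38, edgeR adjusted p = 0.627). In these libraries without strand, 302 bases, 10.5% of the Mef2a exon length, are shared with the oppositely oriented Lysmd4 in GENCODE, and reads there cannot be told apart.

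Mef2c (chromosome 13, 83504034 to 83667079, plus strand), the MEF2 gene needed for looping and right ventricle formation in the mouse, was the steadiest. It stood at 72.4, 86.5 and 92.5 CPM (lowest, median and highest) in the triple knockout, 54.5, 78.1 and 101.4 CPM in the haploinsufficient group and 76.3, 85.9 and 89.5 CPM in wild type. The haploinsufficient libraries spread to both sides of the narrow wild-type range, 3 above it and 4 below it. Fold changes were -0.00 ± 0.10 in the triple knockout and -0.08 ± 0.10 in the haploinsufficient group on the log2 scale (edgeR adjusted p = 0.998 and 0.697). The 95% interval in the triple knockout ran from -0.20 to 0.20.

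Mef2d (chromosome 3, 88142395 to 88169167, plus strand), which encodes the third cardiac MEF2 protein, stood at 37.8, 46.9 and 61.2 CPM in the triple knockout, 28.3, 44.9 and 69.1 CPM in the haploinsufficient group and 39.4, 56.1 and 64.3 CPM in wild type. The groups overlapped, although 3 haploinsufficient libraries lay below every wild-type library and 7 of 8 below the wild-type median. The log2 fold change was -0.16 ± 0.15 in the triple knockout (edgeR adjusted p = 0.783) and -0.31 ± 0.15 in the haploinsufficient group (edgeR adjusted p = 0.269). Without the libraries of a high lung and foregut score the haploinsufficient value was -0.11 (edgeR adjusted p = 0.8102).

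As a mean share of the summed FPKM of the 3 MEF2 genes, Mef2a made up the most in each group, with 49.0% ± 4.64 (SD, n = 7) in the triple knockout, 45.9% ± 6.07 in the haploinsufficient group and 42.3% ± 8.63 in wild type (SD, n = 8 each). Mef2d followed with 31.4% ± 3.98, 32.3% ± 3.46 and 36.7% ± 4.46, and Mef2c with 19.6% ± 1.92, 21.8% ± 5.03 and 21.01% ± 5.40, in the same group order. Single libraries of Mef2a and Mef2d overlapped in wild type (27.5% to 50.3% against 31.4% to 45.9%). They also overlapped in the haploinsufficient group (34.0% to 52.8% against 28.1% to 37.0%). In the triple knockout they did not (42.4% to 56.3% against 26.9% to 36.8%). The differences between groups were of the size of the spread within them, and no test was made.

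Genes that act on MEF2 or are known MEF2 targets are described by counts beside the medians over all genes. Of 13 MEF2 regulators measured (Mef2b was below the filter), 0 were called in any of the 3 comparisons by edgeR, DESeq2 or limma, and their median log2 fold change was -0.02 in the triple knockout and -0.15 in the haploinsufficient group. In the triple knockout 1 had an unadjusted p under 0.05 and in the haploinsufficient group 2, against 10.8% and 17.2% of all genes. Such counts of the later lists stand against the same shares. The smallest p in the triple knockout belonged to the class IIa deacetylase gene Hdac5 (-0.26 ± 0.08, edgeR adjusted p = 0.164), followed by the p38 kinase gene Mapk14 (0.24 ± 0.12, adjusted p = 0.505). The haploinsufficient ones belonged to Hdac7, a deacetylase of the same class prominent in endothelium (-0.31 ± 0.12, edgeR adjusted p = 0.167), and to the acetyltransferase gene Ep300 (-0.39 ± 0.18, adjusted p = 0.258).

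Of 15 MEF2 target genes 0 were called against wild type in either GRK group by edgeR over all libraries, DESeq2 or limma. Fits of fewer libraries called Myoz2 in the triple knockout when only the groups compared were fitted (-0.53, edgeR adjusted p = 0.0467) and Tcap within IDs 1 to 12 (-0.85, adjusted p = 0.01998), and in the haploinsufficient group, within IDs 19 to 30, the myoglobin gene Mb (-1.03, adjusted p = 0.0445) and Ppargc1a (-0.92, adjusted p = 0.0384). Fold changes of the list were negative for 12 of 15 in the triple knockout and 11 of 15 in the haploinsufficient group. Their median was -0.19 in each, against 0.01 over all genes. An unadjusted p under 0.05 was met by 4 of 15 and 2 of 15, against 10.8% and 17.2% of all genes. Tcap and Myoz2, both genes of Z-disc proteins, gave -0.47 ± 0.15 and -0.50 ± 0.16 in the triple knockout (edgeR adjusted p = 0.147 and 0.175). In the haploinsufficient group Xirp1, an actin-binding protein gene of the intercalated disc, was at -0.42 ± 0.17 (edgeR adjusted p = 0.193) and the mitochondrial coactivator gene Ppargc1a at -0.41 ± 0.18 (adjusted p = 0.229).

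Srf itself was level between the genotypes. Of the 7 genes of the 9 with a RefSeq promoter entry (GRCm38.p6, 250 bases before to 50 after the start site), Srf has 2 CArG boxes, the sites its own protein binds, at positions -82 and -62 from the start site. A CArG box is found in 1.63% of all 32851 promoters of this length on either strand. The Srf promoter (chr17:46556113-46556412, minus strand) is shown because SRF is known to act on its own gene, with the CArG boxes and a match to AAGTG or CACTT, the core of the NKX2-5 site, in capitals. That core is held by 46.4% of all promoters.
Srf promoter: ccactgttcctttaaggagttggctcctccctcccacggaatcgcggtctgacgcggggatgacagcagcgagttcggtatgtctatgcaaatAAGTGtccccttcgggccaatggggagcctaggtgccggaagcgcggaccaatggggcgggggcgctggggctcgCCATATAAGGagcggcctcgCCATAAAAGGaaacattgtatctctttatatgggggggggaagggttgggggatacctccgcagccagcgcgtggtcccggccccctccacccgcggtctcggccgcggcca
A match describes these letters and does not show binding.

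Srf (chromosome 17, 46546839 to 46556162, minus strand) stood at 164.8, 203.6 and 245.9 CPM (lowest, median and highest) in the triple knockout, 191.4, 227.8 and 289.6 CPM in the haploinsufficient group and 185.0, 205.3 and 251.8 CPM in wild type. The 3 ranges nearly coincided, apart from haploinsufficient replicate 3 on top. Log2 fold changes were -0.01 ± 0.10 in the triple knockout (95% interval -0.21 to 0.19, edgeR adjusted p = 0.985) and 0.12 ± 0.09 in the haploinsufficient group (-0.07 to 0.31, edgeR adjusted p = 0.549).

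Myocd (chromosome 11, 65176571 to 65269989, minus strand), the SRF coactivator of cardiac and smooth muscle genes, was lower in most libraries of both GRK groups. Its lowest, median and highest levels were 107.9, 121.5 and 168.9 CPM in the triple knockout, 84.5, 114.2 and 186.4 CPM in the haploinsufficient group and 147.1, 166.3 and 196.7 CPM in wild type. In the triple knockout 6 of 7 libraries lay below every wild-type library, with replicate 2 inside the wild-type range, and in the haploinsufficient group 7 of 8 did so, with replicate 3 inside it. Myocd fell in the haploinsufficient group, by 0.47 ± 0.13 on the log2 scale (95% interval -0.73 to -0.21, edgeR adjusted p = 0.0405). In the triple knockout the change was -0.41 ± 0.13 (-0.67 to -0.15), which did not pass the threshold (edgeR adjusted p = 0.145), although it did when the fit held only these groups (-0.41, adjusted p = 0.0414). The groups themselves differed by 0.06 ± 0.13 (-0.20 to 0.33, edgeR adjusted p = 0.865), so a pass in one and not the other is no difference between them.

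The Myocd call lay close to the threshold. It was kept in 13 of the 23 fits that left out a library and lost without wild-type replicates 1, 5, 6, 7 or 8 or haploinsufficient replicates 1, 2, 6, 7 or 8 (log2 fold change -0.48 to -0.40, edgeR adjusted p = 0.0549 to 0.103). Within library IDs 19 to 30 Myocd fell by 0.68 (edgeR adjusted p = 0.0284), whereas within IDs 1 to 12 the value was -0.26 (adjusted p = 0.7496), and the difference between the ID sets was -0.41 ± 0.24 (adjusted p = 0.732). Endothelial markers moved with Myocd, and lung and foregut markers moved in the opposite direction. Over the 23 libraries, which share depth scaling and tissue makeup, the Pearson correlation of Myocd was 0.74 with the endothelial score and -0.71 with the lung and foregut score. The 7 endothelial markers, all detected, summed to 942 to 1154 CPM in the triple knockout, 822 to 1053 CPM in the haploinsufficient group and 953 to 1260 CPM in wild type. Of the 7, Npr3 fell in the triple knockout, and Cdh5, Npr3 and Tek fell in the haploinsufficient group. The part of these markers in the Myocd level was not tested. The 3 haploinsufficient libraries with a high score stood at 84.5 to 108.7 CPM and the other 5 at 107.4 to 186.4. Without all libraries of a high score the fold change was -0.32 in the haploinsufficient group (edgeR adjusted p = 0.292) and -0.42 in the triple knockout (adjusted p = 0.454), where 3 libraries remain, and with the score as a term -0.27 and -0.21 (adjusted p = 0.249 and 0.492).

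**Figure D3:**
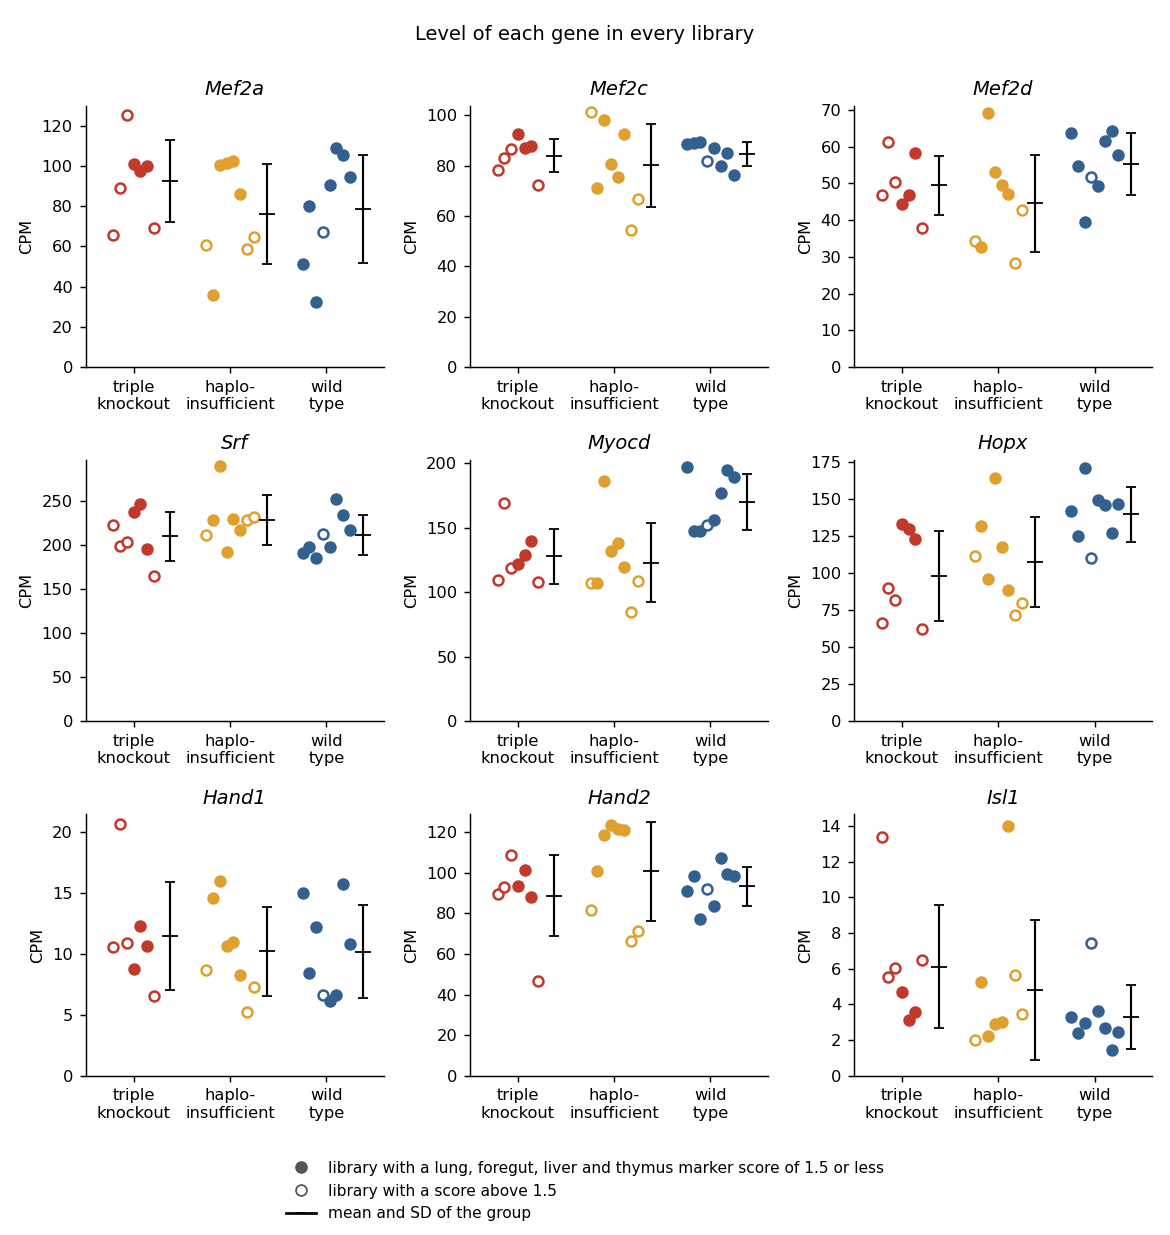
CPM of the 9 genes in every library, with the triple knockout on the left, the haploinsufficient group in the middle and wild type on the right of each panel, open circles for libraries with a lung, foregut, liver and thymus marker score above 1.5 and bars for mean and SD. Myocd lies below the wild-type range of 147.1 to 196.7 CPM in 6 of 7 triple-knockout and 7 of 8 haploinsufficient libraries, and the open circles of Hopx lie low in the triple knockout.

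Hopx (chromosome 5, 77086986 to 77115123, minus strand) encodes a small homeodomain protein that restrains SRF and is known as an NKX2-5 target in the mouse heart. RefSeq lists a pair of start sites with different letters before them. The distal promoter (chr5:77115074-77115373, minus strand) has a CArG box at -83, and the proximal promoter (chr5:77095218-77095517, minus strand) has 3 matches to the NKX2-5 core, at -170, -122 and 35, the last within a CANNTG box. They are shown because they hold matches to the site letters of both regulators, again with those matches in capitals. A CArG box is held by 1.63% and the NKX2-5 core by 46.4% of all promoters, and here too a match does not show binding.
Hopx distal promoter: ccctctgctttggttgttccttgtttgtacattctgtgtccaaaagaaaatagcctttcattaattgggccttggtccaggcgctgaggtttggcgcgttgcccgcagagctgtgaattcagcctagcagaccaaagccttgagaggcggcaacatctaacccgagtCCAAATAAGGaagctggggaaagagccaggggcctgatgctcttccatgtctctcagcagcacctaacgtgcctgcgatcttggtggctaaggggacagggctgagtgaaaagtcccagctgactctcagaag
Hopx proximal promoter: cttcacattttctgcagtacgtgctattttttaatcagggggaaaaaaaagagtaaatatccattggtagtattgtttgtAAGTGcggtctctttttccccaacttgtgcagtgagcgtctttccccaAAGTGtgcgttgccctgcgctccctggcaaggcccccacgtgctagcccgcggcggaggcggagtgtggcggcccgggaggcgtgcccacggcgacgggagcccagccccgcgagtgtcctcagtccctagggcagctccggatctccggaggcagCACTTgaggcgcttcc
Among the other promoters searched, Mef2a has a match to the MEF2 consensus at -2, a match that 3.19% of all promoters hold.

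Hopx levels were 62.2, 90.3 and 133.0 CPM (lowest, median and highest) in the triple knockout, 71.4, 103.8 and 163.9 CPM in the haploinsufficient group and 110.3, 143.7 and 170.8 CPM in wild type. All 7 triple-knockout libraries and 7 of 8 haploinsufficient libraries lay below the wild-type median, but the ranges overlapped. Neither difference passed the test, with log2 fold changes of -0.51 ± 0.17 in the triple knockout (95% interval -0.86 to -0.16, edgeR adjusted p = 0.178) and -0.39 ± 0.16 in the haploinsufficient group (-0.72 to -0.05, edgeR adjusted p = 0.217). In a fit of the triple knockout and wild type alone the value was -0.55 and passed (edgeR adjusted p = 0.0498).

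Within the triple knockout the Hopx libraries fell into separate sets. The 4 with a high lung and foregut score stood at 62.2 to 90.3 CPM and the other 3 at 123.0 to 133.0 CPM. This split nearly followed the library ID sets. IDs 10, 11 and 12 all had a high score, and of the higher IDs ID 30 alone did. The score and the ID set are thus not separate checks within the triple knockout. In the haploinsufficient group the 3 high-score libraries held 71.4 to 111.6 CPM and the other 5 held 88.8 to 163.9 CPM, and the high-score wild-type library, at 110.3 CPM, was the lowest of its group. Without these libraries Hopx differed by -0.10 in the triple knockout and -0.30 in the haploinsufficient group (edgeR adjusted p = 0.956 and 0.337). The same 4 triple-knockout libraries had a sympathetic neuron and neural crest score of 1.46 to 2.75, against -0.17 to 0.087 in the other 3. Their smooth muscle score was 0.25 to 0.88, against -0.48 to 0.028. The summed level of the same smooth muscle markers was not higher in the 4, at 1455 to 1705 CPM against 1469 to 1846 CPM. The cardiomyocyte score of the 4 libraries was -0.48 to -0.079, against 0.31 to 0.41 in the other 3. Over the 23 libraries the Pearson correlation of Hopx was -0.74 with the neural score and -0.69 with the smooth muscle score. It was -0.69 with the lung and foregut score and 0.51 with the cardiomyocyte score. The part of these markers in the Hopx level was not tested. The GENCODE antisense gene Hopxos covers 402 bases, 26.6% of the Hopx exons, and its reads cannot be told apart from those of Hopx.

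**Figure D4:**
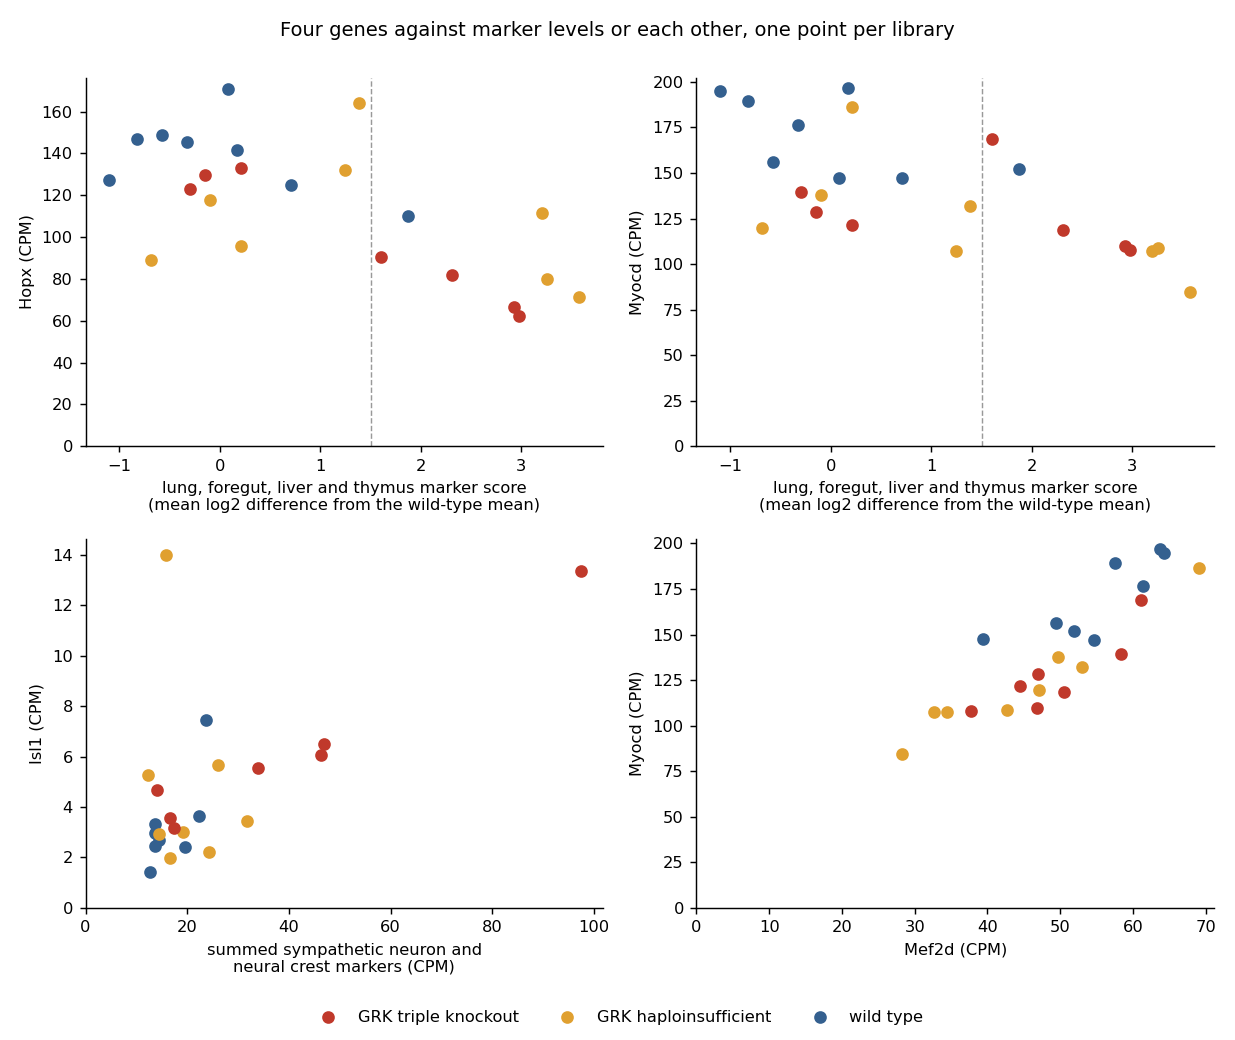
One point per library, colored by genotype. Top, Hopx and Myocd CPM against the lung, foregut, liver and thymus marker score, with a dashed line at 1.5, right of which Hopx stays between 62.2 and 111.6 CPM. Bottom left, Isl1 CPM against the summed CPM of sympathetic neuron and neural crest markers, with triple-knockout replicate 1 at 97.5 and 13.4 and haploinsufficient replicate 6 at 14 CPM of Isl1 with few neural transcripts. Bottom right, Myocd against Mef2d CPM, which rise together over all genotypes.

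Among genes that work with SRF or respond to it, Fhl2, Csrp3, Nppb, Tagln and Ctgf fell in at least 1 GRK group and Myl9 rose in the haploinsufficient group. Fhl2, an SRF-binding LIM protein gene of heart muscle, was at 103.1, 137.3 and 175.2 CPM (lowest, median and highest) in the triple knockout, 114.2, 139.8 and 190.8 CPM in the haploinsufficient group and 182.2, 222.0 and 263.4 CPM in wild type. The triple-knockout and wild-type ranges did not overlap, and 7 of 8 haploinsufficient libraries lay below every wild-type library. Fhl2 fell by 0.64 ± 0.12 in the triple knockout and by 0.57 ± 0.12 in the haploinsufficient group (edgeR adjusted p = 0.00394 and 0.00829). Without the high-score libraries it was at -0.38 in the triple knockout, which no longer passed (edgeR adjusted p = 0.416), and at -0.52 in the haploinsufficient group, which did (adjusted p = 0.0273). With the score as a term the haploinsufficient value was -0.38 and did not pass (edgeR adjusted p = 0.0885).

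Csrp3, which encodes the Z-disc LIM protein MLP, fell in the triple knockout by 0.47 ± 0.12 (edgeR adjusted p = 0.0466), with 484.5 ± 127.3 CPM (SD, n = 7) against 663.4 ± 54.7 CPM in wild type (SD, n = 8). It was at 554.6 ± 64.7 CPM in the haploinsufficient group (-0.25 ± 0.12, edgeR adjusted p = 0.257). Without the high-score libraries the triple-knockout value was -0.17 (edgeR adjusted p = 0.904). The call was kept only without haploinsufficient replicates 2, 3, 4 or 7 or triple-knockout replicates 4 or 5, and lost without any of the 17 others (adjusted p = 0.0519 to 0.140). It was also lost without the count filter (adjusted p = 0.0533), without the ID set term (0.0702), in limma without a filter (0.05356) and with the score as a term (-0.36, 0.152). These were the calls among 12 SRF cofactors and HOPX partners, 2 in the triple knockout and 1 in the haploinsufficient group. Of all genes tested 1.18% and 2.24% were called. The medians of the list were 0.04 and -0.03, and 3 and 2 of the 12 had an unadjusted p under 0.05.

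Of 23 contractile and natriuretic targets of SRF and myocardin, 2 fell in the triple knockout, and in the haploinsufficient group 1 fell and 1 rose. Of all genes tested 0.696% fell in the triple knockout, and 1.38% fell and 0.861% rose in the haploinsufficient group. Nppb, the gene of brain natriuretic peptide, stood at 47.6, 64.5 and 103.3 CPM in the triple knockout, 45.7, 69.2 and 93.4 CPM in the haploinsufficient group and 93.9, 120.1 and 152.0 CPM in wild type. All 8 haploinsufficient libraries lay below every wild-type library, as did 6 of 7 of the triple knockout. It fell by 0.79 ± 0.15 in the triple knockout and by 0.75 ± 0.15 in the haploinsufficient group (edgeR adjusted p = 0.00412 and 0.00502). Tagln, a smooth muscle gene expressed in embryonic heart muscle, fell in the triple knockout by 0.49 ± 0.11 (edgeR adjusted p = 0.0180), with 199.2 ± 17.3 CPM (SD, n = 7) against 281.7 ± 39.2 CPM in wild type (SD, n = 8), and was at 233.2 ± 44.9 CPM in the haploinsufficient group (-0.27 ± 0.11, adjusted p = 0.186). Myl9, a regulatory myosin light chain gene of smooth muscle, rose in the haploinsufficient group by 0.42 ± 0.11 (edgeR adjusted p = 0.0398), at 1681 ± 359.7 CPM against 1235 ± 120.1 CPM in wild type (SD, n = 8 each), and 7 of 8 libraries lay above every wild-type library. Tagln lost its call without triple-knockout replicates 1 or 3 (edgeR adjusted p = 0.0504 to 0.0531), and Myl9 without haploinsufficient replicates 1, 5, 6 or 8 or wild-type replicates 1, 3, 5, 6, 7 or 8 (adjusted p = 0.0546 to 0.101). The Myl9 call was also lost without the count filter (edgeR adjusted p = 0.0521), without the ID set term (0.0619) and in limma (0.0765 to 0.0905 over 3 settings), and that of Tagln in limma (0.0731 to 0.0933) and with the score as a term (0.07501). The medians of the list were -0.01 in the triple knockout and -0.14 in the haploinsufficient group, against 0.01 over all genes. An unadjusted p under 0.05 was met by 8 of 23 in each group, against 10.8% and 17.2% of all genes. With the lung and foregut score as a term, Acta1, a sarcomeric actin gene, passed at 0.57 and Myh11, the smooth muscle myosin gene, at -1.48 in the haploinsufficient group (edgeR adjusted p = 0.0356 and 0.0355). The 7 smooth muscle markers summed to 1455 to 1846 CPM in the triple knockout, 1499 to 2125 in the haploinsufficient group and 1672 to 2347 in wild type, all present. All 7 markers, Tagln included, are also among the 23 targets, so their sum is no separate measure beside these calls. Their part in these calls was not tested.

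Of 10 measured growth-factor-induced targets (Egr3 and Fosb were below the filter), Ctgf, a gene of a secreted matrix protein, fell in both GRK groups. It averaged 67.8 ± 10.4 CPM in the triple knockout (SD, n = 7), 73.3 ± 15.3 CPM in the haploinsufficient group and 106.0 ± 23.6 CPM in wild type (SD, n = 8 each), and every library of both GRK groups lay below the wild-type median. The log2 fold changes were -0.64 ± 0.14 and -0.53 ± 0.14 (edgeR adjusted p = 0.0125 and 0.0344). The haploinsufficient call was lost without its replicates 1, 4, 7 or 8 or wild-type replicates 1, 6 or 8 (adjusted p = 0.0596 to 0.101). In limma neither call of Ctgf was made, with adjusted p of 0.118 to 0.164 in the triple knockout and 0.0679 to 0.0906 in the haploinsufficient group over 3 settings. With the lung and foregut score as a term the haploinsufficient call was lost. The triple-knockout call was kept there (-0.59, edgeR adjusted p = 0.0432). Its relative Cyr61 was at -0.36 ± 0.12 in the triple knockout and -0.35 ± 0.12 in the haploinsufficient group, short of the threshold (edgeR adjusted p = 0.173 and 0.118). The list's medians were -0.08 and 0.11, and 3 and 2 of the 10 had an unadjusted p under 0.05. Its 1 call in each group stands against 1.18% and 2.24% of all genes called.

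Without the high-score libraries, 0 of these cofactors and targets were called in the triple knockout. In the haploinsufficient group Fhl2, Nppb and Myl9 were called then and Ctgf was not (-0.41, edgeR adjusted p = 0.268). The triple-knockout values were then -0.34 for Nppb, -0.39 for Tagln and -0.73 for Ctgf (edgeR adjusted p = 0.684, 0.563 and 0.128), from 3 triple-knockout libraries.

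**Figure D5:**
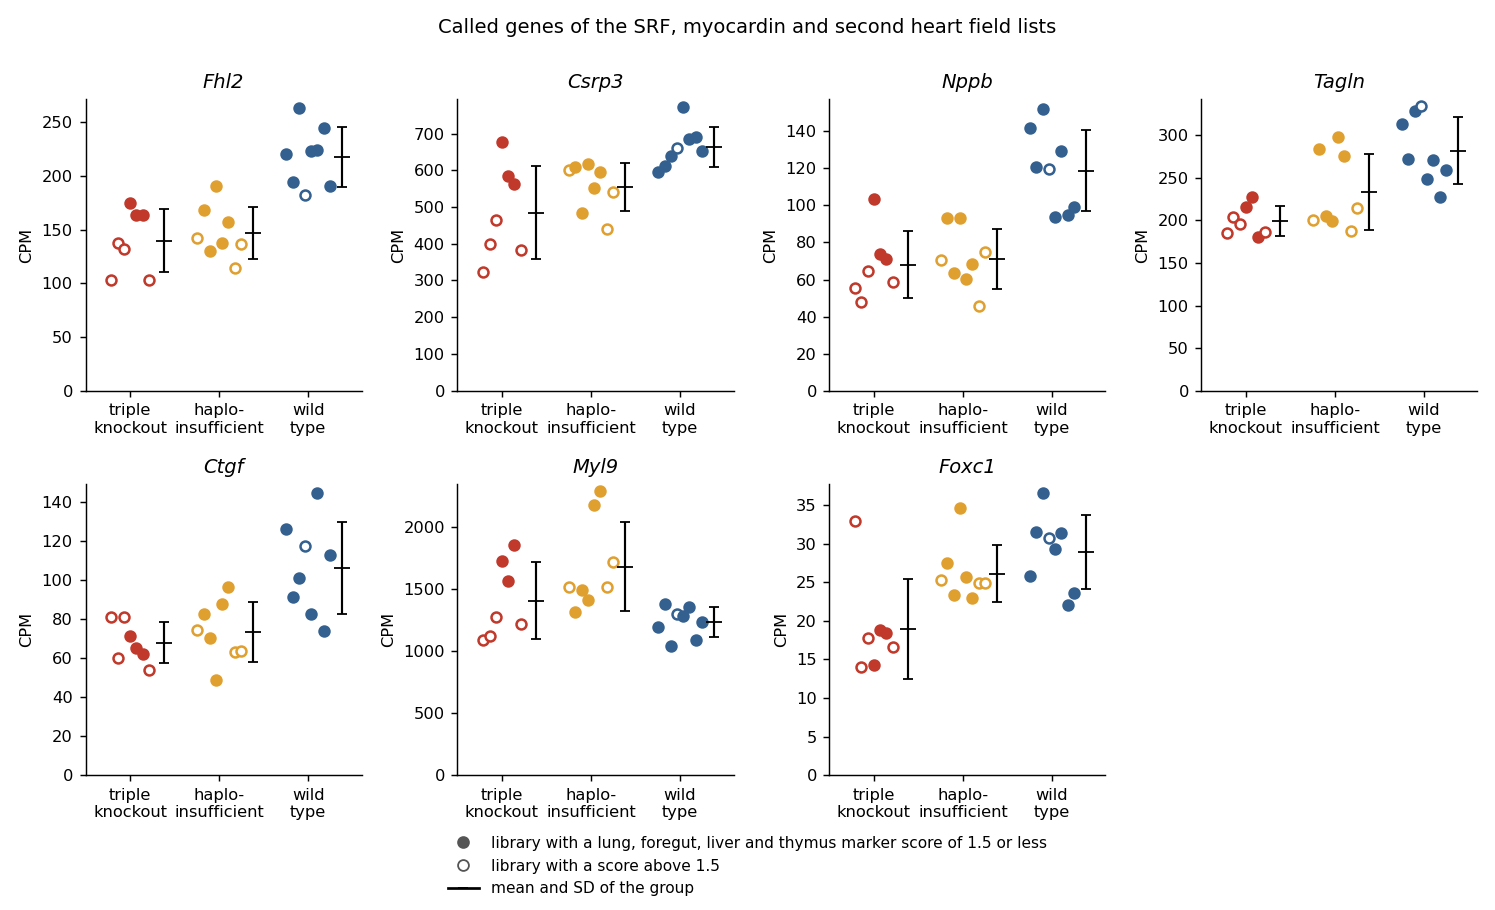
CPM in every library of the 7 list genes called in a comparison with wild type, with the triple knockout left, the haploinsufficient group in the middle and wild type right, open circles for libraries with a high lung, foregut, liver and thymus score and bars for mean and SD. Fhl2 and Nppb lie lower in both GRK groups, Csrp3 is lowest in the open circles of the triple knockout, and Foxc1 is low in 6 of 7 triple-knockout libraries.

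The HAND genes did not differ between genotypes at the threshold. Hand1 (chromosome 11, 57828713 to 57832147, minus strand) was at 6.51, 10.6 and 20.7 CPM (lowest, median and highest) in the triple knockout, 5.21, 9.67 and 16.0 CPM in the haploinsufficient group and 6.13, 9.59 and 15.8 CPM in wild type. Except for triple-knockout replicate 2 the ranges coincided. Its log2 fold changes of 0.19 ± 0.23 in the triple knockout and -0.05 ± 0.23 in the haploinsufficient group (edgeR adjusted p = 0.851 and 0.944) carry wide intervals, -0.29 to 0.66 and -0.52 to 0.43.

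Hand2 (chromosome 8, 57320983 to 57324517, plus strand) was at 46.9, 93.0 and 108.8 CPM in the triple knockout, 66.2, 109.9 and 123.5 CPM in the haploinsufficient group and 77.1, 95.2 and 107.5 CPM in wild type. The haploinsufficient libraries divided, with 4 above every wild-type library and 2 below, and the 3 with a high lung and foregut score, at 66.2 to 81.6 CPM, lay below the other 5, at 101.0 to 123.5 CPM. Triple-knockout replicate 7, which has a high score too, was the lowest of all libraries. The other high-score libraries of that group stood at 89.8 to 108.8 CPM, against 87.9 to 101.3 CPM in those of lower score. The high-score wild-type library, at 92.1 CPM, lay inside its group. Over all libraries fold changes on the log2 scale were -0.07 ± 0.15 in the triple knockout and 0.10 ± 0.14 in the haploinsufficient group (edgeR adjusted p = 0.913 and 0.767). Without the high-score libraries Hand2 averaged 117.2 CPM in 5 haploinsufficient and 93.6 CPM in 7 wild-type libraries. In the 3 triple-knockout libraries left it averaged 94.3 CPM. Over the 14 other settings the triple-knockout value ran from -0.25 to 0.18 and the haploinsufficient value from -0.04 to 0.35, with 0 called. The antisense gene Hand2os1 covers 461 bases or 20.6% of the Hand2 exons in GENCODE, and its reads are counted with Hand2 here.

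Of 9 HAND dimer partners and ID inhibitors, 0 were called in any comparison by edgeR over all libraries, DESeq2 or limma, with 1 unadjusted p under 0.05 in the triple knockout and 0 in the haploinsufficient group. Within IDs 19 to 30 alone Tcf4 passed in the haploinsufficient group (-0.49, edgeR adjusted p = 0.0372). Id2 and Id1, whose products bind E proteins and keep them from dimerising, were at -0.33 ± 0.11 and -0.26 ± 0.14 in the triple knockout (edgeR adjusted p = 0.169 and 0.518). The E-protein genes Tcf4 and Tcf3 were at -0.22 ± 0.12 and 0.17 ± 0.13 in the haploinsufficient group (edgeR adjusted p = 0.357 and 0.522). The list's medians were -0.09 and 0.02.

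Isl1 (chromosome 13, 116298270 to 116309688, minus strand) was the least abundant of the 9 and the most variable between libraries, with 447 reads in all in the triple knockout, 196 in the haploinsufficient group and 184 in wild type. It was at 3.15, 5.53 and 13.4 CPM (lowest, median and highest) in the triple knockout, 1.98, 3.22 and 14 CPM in the haploinsufficient group and 1.43, 2.83 and 7.44 CPM in wild type. All 7 triple-knockout libraries lay above the wild-type median, yet all but replicate 1 lay within the wild-type range. Each group had a single library far above the rest: replicate 1 in the triple knockout, replicate 6 in the haploinsufficient group and replicate 4 in wild type. Log2 fold changes were 0.94 ± 0.38 in the triple knockout (95% interval 0.17 to 1.72, edgeR adjusted p = 0.308) and 0.62 ± 0.39 in the haploinsufficient group (-0.18 to 1.42, edgeR adjusted p = 0.427).

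Markers of sympathetic neurons and neural crest, cells that also express Isl1, reached their highest summed level in a triple-knockout library. The 12 markers summed to 14.1, 33.9 and 97.5 CPM (lowest, median and highest) in the triple knockout, 12.3, 17.9 and 31.8 CPM in the haploinsufficient group and 12.7, 14.1 and 23.6 CPM in wild type, with none at 0 throughout a group and 0 of 7 tested called against wild type in either group. Triple-knockout replicate 1 held the most neural transcripts of all libraries and the most Isl1 of its group, with Dbh, the noradrenaline-synthesising enzyme gene, at 15.3 CPM and the neuronal gene Stmn2 at 21.5 CPM, against at most 2.57 and 5.16 CPM in wild type. Haploinsufficient replicate 6 had the highest Isl1 with Dbh at 0 and Stmn2 at 0.689 CPM. Of the 8 sinus node genes there, the pacemaker channel gene Hcn4 (63.1 CPM), the homeobox gene Shox2 (15.6 CPM) and Vsnl1 (12.4 CPM) were the highest of their group, and Tbx3, Tbx18, Bmp4, Smoc2 and Rgs6 were not. Without the high lung and foregut score libraries, which include triple-knockout replicate 1, Isl1 was at 0.28 in the triple knockout and 1.02 in the haploinsufficient group (edgeR adjusted p = 0.956 and 0.2698). The part of neural markers was not tested.

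Isl1 differed in direction between the library ID sets in the haploinsufficient group, at -0.45 within IDs 1 to 12 and 1.30 within IDs 19 to 30 (edgeR adjusted p = 0.851 and 0.161). The difference between the sets was 1.74 ± 0.70 (edgeR adjusted p = 0.631). For the 9 genes, 0 differences between ID sets were called in any comparison, while 24 of all genes were called for the triple knockout, 0 for the haploinsufficient group and 12 for the triple knockout against the haploinsufficient group.

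Of 10 measured genes of the second heart field (Tbx1, Fgf8 and Six2 were among those below the filter), Foxc1, a forkhead gene of outflow tract progenitors, fell in the triple knockout. It was at 14.03, 17.7 and 33.0 CPM (lowest, median and highest) there, 22.95, 25.1 and 34.6 CPM in the haploinsufficient group and 22.1, 30.03 and 36.6 CPM in wild type. All triple-knockout libraries but replicate 1 lay below every library of both other groups. The log2 fold change was -0.59 ± 0.14 against wild type (edgeR adjusted p = 0.0289; 0.0547 to 0.0905 without triple-knockout replicates 2, 3, 4 or 7 or wild-type replicates 2, 3, 5 or 6), -0.44 ± 0.14 against the haploinsufficient group (adjusted p = 0.153), and -0.15 ± 0.14 for the haploinsufficient group against wild type (adjusted p = 0.617). Without the high-score libraries Foxc1 was at -0.64 in the triple knockout (adjusted p = 0.1245), and it was not called in limma (0.0778 to 0.0993 over 3 settings), within IDs 1 to 12 (-0.52, adjusted p = 0.405) or within IDs 19 to 30 (-0.66, adjusted p = 0.0699). Prdm1, a repressor gene of the pharyngeal region, was at 0.82 ± 0.32 in the triple knockout (edgeR adjusted p = 0.285). Of the same 10 genes, 0 were called in the haploinsufficient group by edgeR, DESeq2 or limma and 2 had an unadjusted p under 0.05, the semaphorin gene Sema3c at -0.40 ± 0.15 and the growth factor gene Fgf10 at 1.49 ± 0.68 (edgeR adjusted p = 0.175 and 0.253). With the lung and foregut score as a term Sema3c passed (-0.65, edgeR adjusted p = 0.0180). In the triple knockout 3 of the 10 had an unadjusted p under 0.05, and the 1 call stands against 1.18% of all genes called. The list's medians were -0.04 and -0.14.

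Of 8 sinus node genes 0 were called against wild type in either GRK group by edgeR, DESeq2 or limma, with 1 unadjusted p under 0.05 in each. Bmp4, a signal of the venous pole and outflow tract, was at 0.23 ± 0.10 in the triple knockout and 0.29 ± 0.10 in the haploinsufficient group (edgeR adjusted p = 0.350 and 0.114), and the T-box gene Tbx3 at 0.31 ± 0.24 and 0.48 ± 0.24 (adjusted p = 0.727 and 0.305). The list's medians were 0.15 and -0.07.

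In triple-knockout against haploinsufficient hearts, which differ by label in Grk2 alone, the 9 genes ranged from -0.17 ± 0.15 for Hand2 to 0.32 ± 0.39 for Isl1 (edgeR adjusted p = 0.6002 and 0.730). The 95% intervals of Mef2c (-0.12 to 0.29), Srf (-0.32 to 0.07) and Myocd (-0.20 to 0.33) were the narrower ones, and that of Isl1 (-0.47 to 1.11) was the widest. None of the list genes was called there by edgeR over all libraries, and the growth-factor-induced Junb came nearest, at -0.70 ± 0.18 (edgeR adjusted p = 0.0780), followed by Prdm1 at 1.17 ± 0.34 (adjusted p = 0.115). DESeq2 called Junb there (-0.71, adjusted p = 0.0193) and limma 0 of the list genes. Within IDs 1 to 12 edgeR called Tcap (-0.91, adjusted p = 0.0162) and the matrix protein gene Smoc2 (1.23, adjusted p = 0.0236), and with the lung and foregut score as a term it called Myh11 (1.29, adjusted p = 0.0345). Other genes with the smallest p in their lists were Tcf4 (0.33 ± 0.12), Mkl2, an SRF coactivator gene of the myocardin family (0.43 ± 0.16), Ep300 (0.42 ± 0.19), Tcap (-0.37 ± 0.15), Myl9 (-0.28 ± 0.12) and the visinin-like gene Vsnl1 (0.74 ± 0.35), with adjusted p from 0.189 to 0.312.

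Across the 23 libraries the 9 genes varied in different company. Of their 36 pairs, Mef2d and Myocd were the most alike, with a Pearson correlation of log2 CPM of 0.87 and a Spearman correlation of 0.87. The correlation was 0.85 within the triple knockout, 0.95 within the haploinsufficient group and 0.80 within wild type, 0.81 within IDs 1 to 12 and 0.93 within IDs 19 to 30, and 0.82 without the 2 libraries farthest from the Mef2d median. The lowest was that of Isl1 and Hopx, at -0.59. These values describe libraries that share depth scaling and tissue makeup.

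For each gene the most similar genes among 12831 candidates were named by the same Pearson correlation. Hopx was most like Sdpr, a caveolar protein gene (0.95), and the striated muscle gene Smpx (0.92), and Mef2a was most like the small heat shock protein gene Cryab (0.92) and Appbp2 (0.91). Mef2d paired with the RNA-binding protein gene Rbpms and the focal adhesion gene Tns1 (0.91 each), and Myocd with the actin regulator gene Mtss1 and Slitrk5 (0.89 each). Isl1 was closest to the neuronal kinesin gene Kif5a (0.74) and the lymphatic endothelial receptor gene Lyve1 (0.73). For Hand1 these were Snap29 and Prtg (0.84 each), for Hand2 the corepressor gene Aes (0.84) and Bmp7 (0.81), for Mef2c Mitf (0.80) and the cytokine receptor gene Il10rb (0.79), and for Srf Sgta (0.72).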

How the data were processed

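Heart RNA (Trizol, depleted of ribosomal RNA) was sequenced as single-end libraries without strand, per the labels. The deposited values are raw HTSeq counts per gene and FPKM made with Cufflinks 2.1, per the submitters' processing notes, which also name mm10, TopHat2 2.0.10, Bowtie2, DESeq and edgeR. Other settings are not given in the sources used here. Gene positions come from the deposited gene models, overlaps from GENCODE and promoters from RefSeq, which was matched for 7 of the 9 genes.

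Counts were fitted in edgeR (4.0.16, R 4.3.3) by quasi-likelihood over all 23 libraries, with TMM scaling, 1 coefficient for each group and 1 for the library ID set. A filter (minimum count 10, minimum total 15) left 13941 genes, with a biological coefficient of variation of 0.208. Cre and 58 single features of Grk2, Grk5, Grk6 and Nkx2-5 were kept out of the tested table. P-values are two-sided, with Benjamini-Hochberg adjustment over all genes tested. CPM use TMM-scaled totals, and log2 CPM a prior count of 1. Alternatives were DESeq2 (1.42.0), limma (3.58.1) on log2(FPKM + 0.1) and log2(FPKM + 1), which understates changes of low genes, RLE and upper-quartile scaling, unfiltered counts, a fit lacking the ID set, a replicate block, subsets of libraries and each library left out. The edgeR fit was tested on simulated data. Settings that use the lung and foregut marker score were chosen after seeing the data.

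The 9 genes, the lists and the tests were chosen with earlier results of these data known. Named are the 9 genes, the called genes of each list or those with the smallest p, and the 2 genes most like each of the 9, except for items not reported here; for the triple knockout against the haploinsufficient group some of these are left out. Marker genes and single libraries were picked after their values were seen. Isl1, with the fewest reads, is the least precise. Libraries of a group differed by a chi-square of at least 5.20 per degree of freedom, so none was taken for a repeat deposit.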

Additional observations from a re-analysis of the deposited data

Results flagged for a closer look

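In 27 checks, each of a gene within a group, 6 libraries stood apart from the others of their group by Dixon's criterion, which chance meets in about 1 of 20 groups. The highest of their groups were Srf in haploinsufficient replicate 3 at 289.6 CPM (next 231.7), Hand1 in triple-knockout replicate 2 at 20.7 CPM (next 12.3), and Isl1 in triple-knockout replicate 1 at 13.4 CPM (next 6.51), haploinsufficient replicate 6 at 14 CPM (next 5.66) and wild-type replicate 4 at 7.44 CPM (next 3.66). Hand2 in triple-knockout replicate 7, at 46.9 CPM, was the lowest of its group (next 87.9). The 3 Isl1 libraries come from different genotypes.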

How the results depend on the processing

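The 11 calls among the 9 genes and the list genes kept their direction under 14 other settings and with each of 23 libraries left out. Within IDs 1 to 12 the call of Nppb in the triple knockout was kept, and within IDs 19 to 30 those of Myocd, Fhl2 and Nppb in the haploinsufficient group, while the others were lost. Losses of list genes under limma, without the count filter, without the ID set term and with the marker score are given beside each gene. Myocd in the haploinsufficient group lost its call under 5 settings: -0.47 (adjusted p = 0.0553) in a fit of the groups compared alone, -0.26 (0.7496) with IDs 1 to 12, -0.32 (0.292) without the high-score libraries, -0.27 (0.249) with the score as a term and -0.49 (0.0746) with the replicate number as a block. Replicate numbers were not taken as pairs in the main fit. Of 22 same-numbered pairs, 5 had a correlation of deviations above 0.1 (range -0.195 to 0.467), which cannot exclude a pairing.

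Changes of sign were met in fold changes that were not called. With a library left out, 35 of 621 values changed sign, over ranges of -0.035 to 0.030 for Mef2c, -0.048 to 0.044 for Srf and -0.12 to 0.033 for Hand2 in the triple knockout, -0.13 to 0.070 for Mef2a and -0.14 to 0.11 for Hand1 in the haploinsufficient group, and -0.023 to 0.17 for Myocd between the GRK groups. Under the other settings 39 values changed sign, and the cause was not tested. IDs 1 to 12 gave 0.024 for Mef2d, 0.092 for Srf and 0.13 for Hand2 in the triple knockout, -0.45 for Isl1, 0.024 for Mef2c, 0.23 for Hand1 and 0.40 for Mef2a in the haploinsufficient group, and -0.011 for Myocd and -0.093 for Mef2c between the GRK groups. IDs 19 to 30 gave -0.020 for Hand1, -0.13 for Mef2a and 0.043 for Mef2c in the triple knockout, -0.042 for Hand2 in the haploinsufficient group, and -0.53 for Isl1 and 0.32 for Hopx between the GRK groups. In the triple knockout limma gave 0.027 for Srf and 0.039 for Mef2c at a pseudocount of 0.1, filtered or not, and 0.026 and 0.036 at 1, and edgeR without a filter gave 0.0038 for Mef2c. A fit of the groups compared alone gave 0.0074 for Mef2a in the haploinsufficient group. Without the high-score libraries values were 0.060 for Srf and 0.10 for Mef2c in the triple knockout, 0.13 for Hand1 and 0.27 for Mef2a in the haploinsufficient group, and -0.062 for Mef2d, -0.10 for Myocd, -0.17 for Mef2a, -0.73 for Isl1 and 0.20 for Hopx between the GRK groups. The score as a term gave 0.043 for Srf, 0.054 for Mef2d, 0.13 for Mef2c and 0.18 for Hand2 in the triple knockout, and 0.055 for Mef2c, 0.18 for Mef2a and 0.36 for Hand1 in the haploinsufficient group.

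Counts of all genes called were 165 in the triple knockout, 312 in the haploinsufficient group and 55 between the GRK groups. In that order they were 281, 531 and 277 with DESeq2, 50, 20 and 176 with IDs 1 to 12, 51, 179 and 1 with IDs 19 to 30, and 80, 115 and 0 without the high-score libraries. The score as a term gave 188 in the haploinsufficient group and 169 between the GRK groups. The groups compared alone gave 296 in the triple knockout and 1 between the GRK groups. Between the GRK groups the count was 88 for unfiltered counts, 16 with the replicate block, 7 with limma at a pseudocount of 0.1, and 0 at a pseudocount of 1 or for unfiltered FPKM, which gave 87 in the triple knockout. With a library left out the triple-knockout count ran from 116 to 186. The haploinsufficient count ran from 152 (without wild-type replicate 8) to 612 (without haploinsufficient replicate 3), and moved by over 1.5 times also without wild-type replicates 1, 2, 6 or 7 and haploinsufficient replicates 1, 7 or 8. The count between the GRK groups ran from 10 (without triple-knockout replicate 3) to 417 (without haploinsufficient replicate 3), was 97 without triple-knockout replicate 5, and 11 to 30 without triple-knockout replicates 1, 2, 6 or 7 or haploinsufficient replicates 1, 2, 4, 7 or 8.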
